A study of Rattus norvegicus with 7 samples.

Results

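The miR-10 and miR-196 miRNAs of the Hox gene clusters were followed in the livers of rats fed perfluorooctane sulfonate (PFOS) and of rats on a control diet. The array carried 10 of them among 677 rat miRNAs, namely both arms of miR-10a, miR-10b, miR-196a, miR-196b and miR-196c. The members were picked by name, and the family was selected on earlier results of these same arrays, namely the detection flags, the spread between arrays and the difference between PFOS and Control. Those 3 measures are therefore given as descriptions, with no test of the members.

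Liver RNA came from adult male Sprague-Dawley rats kept for 28 days on either diet, with free access to food. The PFOS group (4 arrays) received 50 mg/kg diet and the Control group (3 arrays) the diet without PFOS. Each array held total RNA from 1 rat, labelled with Cy3. A further Control array that failed the submitters' quality control was not analysed here, and numbers such as PFOS 1 only name arrays.

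miRNAs are short RNAs that guide repressor complexes to messenger RNAs, mainly through the seed, bases 2 to 8 of the guide. The genes of miR-10 and miR-196 lie inside the Hox clusters, the arrays of homeobox genes that set position along the body axis, and several Hox messenger RNAs are known targets of both families. The arm that is usually loaded is called the guide here, and the other arm, marked with a star or as -3p, the minor arm. In the RefSeq annotation of assembly GRCr8, Mir10a lay on chromosome 10 between Hoxb5 and Hoxb4. Mir196c lay on the same chromosome between Hoxb13 and Hoxb9. Mir10b, on chromosome 3, overlapped Hoxd4 between Hoxd8 and Hoxd3. Mir196a was on chromosome 7 between Hoxc10 and Hoxc9, and Mir196b on chromosome 4 between Hoxa9 and Hoxa10.

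The 5 guides are shown because all later results concern them, and because they fall into groups that are nearly identical. Mature sequences were matched by name to RefSeq (GRCr8) for 9 of the 10 members, with names lacking a suffix matched to the -5p arm and star names to the -3p arm. They run 5′ to 3′, with the seed in capitals.
miR-10a-5p: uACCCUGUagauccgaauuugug
miR-10b: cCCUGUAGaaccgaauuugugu
miR-196a: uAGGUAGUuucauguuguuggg
miR-196b: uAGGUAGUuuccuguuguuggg
miR-196c: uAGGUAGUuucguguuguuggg
Each pair of miR-196 guides was identical at 21 of 22 bases, and every difference fell at base 12 counted from the 5′ end. The substitutions were A12C from miR-196a to miR-196b, A12G from miR-196a to miR-196c and C12G from miR-196b to miR-196c. All 3 miR-196 guides thus had the seed AGGUAGU, which no other of the 693 mature rat sequences held at bases 2 to 8. The same 7 letters stood elsewhere in 8 further mature miRNAs, namely let-7a, let-7b, let-7c, let-7d, let-7f, let-7g, let-7i and miR-98. miR-10b is annotated to start 2 bases later than miR-10a-5p. Over the 21 bases that then align, 20 were identical, the difference being U12A in positions of miR-10a-5p. The annotated seeds, ACCCUGU and CCUGUAG, differ through this shift. The miR-10b hairpin holds the bases UA just before the annotated start, and with them the first 11 bases of miR-10a-5p.

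Detection separated the members. Detection on an array required that 1 or more probes of a miRNA had the scanner's well-above-background flag on more than 50% of their spots, outliers left out. miR-10a-5p and miR-196c were detected in all 7 livers, each with 136 of 136 kept spots well above background. miR-10b was detected on 3 arrays (PFOS 2, PFOS 3 and PFOS 4), with 39 of 136 spots. miR-196a was detected on 2 arrays (PFOS 1 and PFOS 3), with 43 of 135 spots, and miR-196b on the same 2 arrays, with 33 of 136 spots. None of these 3 guides was detected in a Control liver by this rule. On Control 1 miR-10b fell just short of it, with 5 of 10 spots of a probe well above background. Control arrays were dimmer: for the miRNAs found in every liver, the median signal before scaling was 1.74-fold higher in PFOS and the labelling spike-in 2.23-fold higher, so the part of array brightness in these detections was not tested.

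The 5 minor arms, miR-10a-3p, miR-10b*, miR-196a*, miR-196b* and miR-196c*, were not detected on any array. Of their 687 kept spots, 2 were well above background, both of miR-10b* on PFOS 3. Their background-subtracted signal before scaling lay between -17.3 and 21.8. On the whole array 458 of 677 miRNAs were likewise detected on none of the arrays and 123 on all 7. Of the members, 3 entered the comparison of groups (miR-10a-5p, miR-10b and miR-196c), which was open to miRNAs detected in every Control liver or in 3 or more PFOS livers. miR-10b entered through its PFOS detections alone.

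miR-10a-5p stood at nearly the same level in every liver. Its normalised signal, after scaling and cyclic loess, was 258, 291 and 329 in Control 1 to 3. It was 287, 322, 313 and 293 in PFOS 1 to 4. The groups overlapped, and the highest liver was 1.28-fold above the lowest. Group means were 293 ± 35.6 (SD, n = 3) in Control and 304 ± 16.3 (SD, n = 4) in PFOS, a difference of 0.06 on the log2 scale (SE 0.10), within the spread of either group. Its SD over the 7 arrays, 0.12 on the log2 scale, ranked 137th of 175 tested miRNAs from the largest, below the median SD of 0.21. Among the 34 other miRNAs detected on all arrays with a mean signal within a factor of 2, 23 had a larger SD and 11 a smaller one.

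miR-196c varied most between livers of the 3 tested members. Its normalised signal was 346, 471 and 261 in Control 1 to 3. It was 608 in PFOS 1, but 190, 211 and 151 in PFOS 2 to 4. PFOS 1 was thus the highest of all livers and the other 3 PFOS livers the lowest, so the groups overlapped through a single array. The highest liver was 4.02-fold above the lowest. Means were 359 ± 106 (SD, n = 3) in Control and 290 ± 213.6 (SD, n = 4) in PFOS, with a log2 difference of -0.50 (SE 0.50), about the size of its error. Without PFOS 1 the log2 difference was -0.96 (SE 0.24), and each remaining PFOS value, at most 211, lay below the lowest Control value of 261. Such a gap was not rare in that setting. Of 168 miRNAs tested without PFOS 1, 48 had groups without overlap, 26 of them lower in PFOS. Leaving out any other single array gave -0.68 to -0.26. PFOS 1 was singled out after its value was seen.

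**Figure D1:**
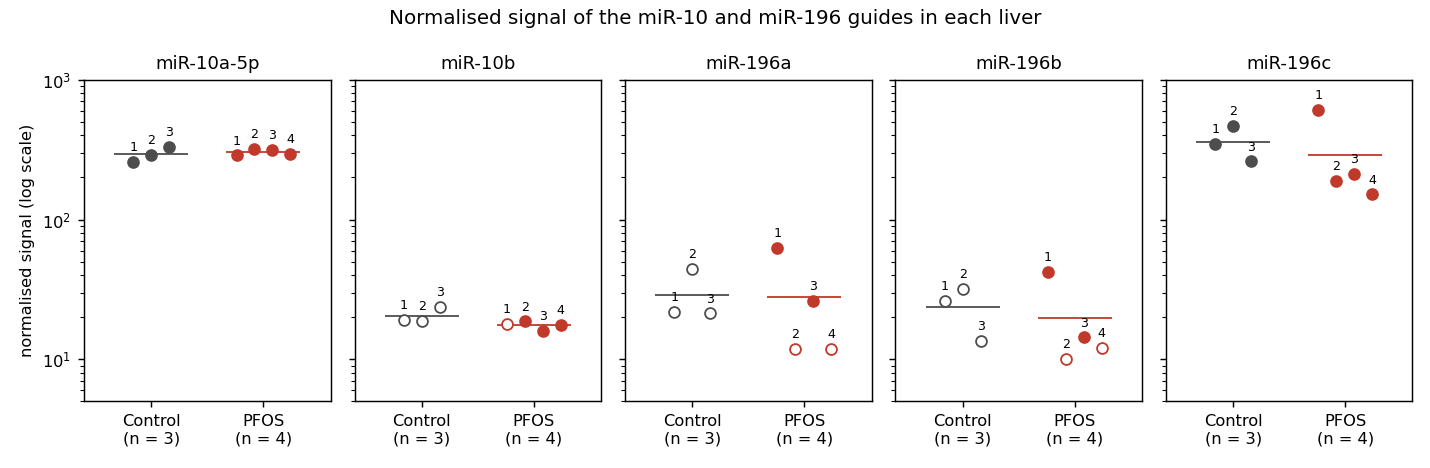
Normalised signal (log axis) of the 5 guides in the 3 Control and 4 PFOS livers; numbers name the arrays, filled points are arrays on which the miRNA was detected, open points are not, and lines are group means. miR-10a-5p is level between 258 and 329, whereas miR-196c runs from 151 to 608 with PFOS 1 above every other liver; levels are not comparable between panels, which rest on different probes.

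The SD of miR-196c over 7 arrays was 0.73 on the log2 scale, ranking 20th of 175 tested miRNAs. Within groups the SD was 0.43 in Control and 0.89 in PFOS, and the pooled value ranked 18th. Of 35 other miRNAs detected on all arrays with a mean signal within a factor of 2, only 4 had a larger SD: miR-139-3p, miR-3584-5p, miR-466b-1* and miR-466b-2*. The median SD among those 35 was 0.15. In this band of brightness miR-196c therefore had a larger SD than most other miRNAs, whereas miR-10a-5p, at 0.12, lay moderately below the median.

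**Figure D2:**
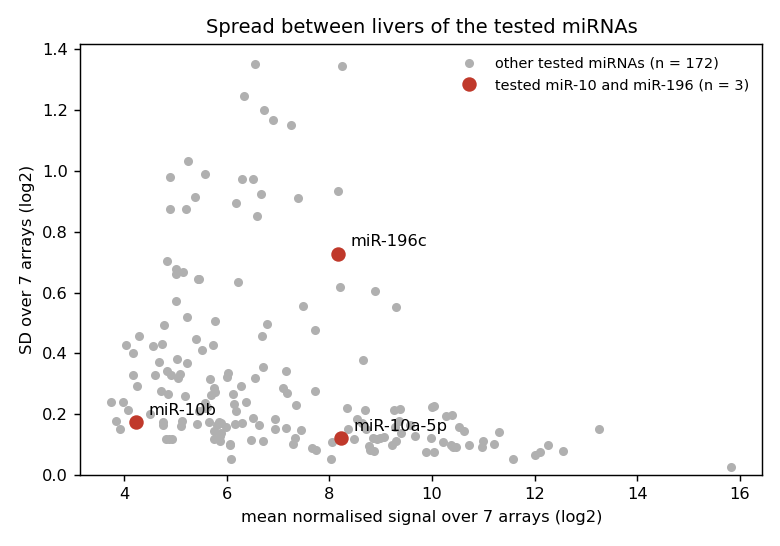
SD of log2 normalised signal over 7 arrays against the mean log2 signal for the 175 tested miRNAs, with miR-10a-5p, miR-10b and miR-196c as large points and the others in grey. At like mean signal miR-196c has an SD of 0.73 and miR-10a-5p one of 0.12.

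The probes of miR-196c shared their highest, second and lowest livers. All 4 probes were highest in PFOS 1, next highest in Control 2 and lowest in PFOS 4. Their SD over arrays ran from 0.73 to 0.77 on the log2 scale of 75th percentile scaled signal, and highest over lowest from 3.68-fold to 4.38-fold. The log2 difference between groups was between -0.53 and -0.43 for single probes. Replicate spots of these probes on 1 array had a median coefficient of variation of 10.96% (range 1.66% to 25.7%), against 52.6% to 56.4% for a probe between arrays. For miR-10a-5p the spots had a median of 8.23%, and its probes varied by 8.14% and 7.46% between arrays. The spot values describe single spots, whereas the values between arrays describe means over spots, which carry less spot noise. Their similar size therefore does not show that miR-10a-5p varied between livers only as much as spot noise.

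**Figure D3:**
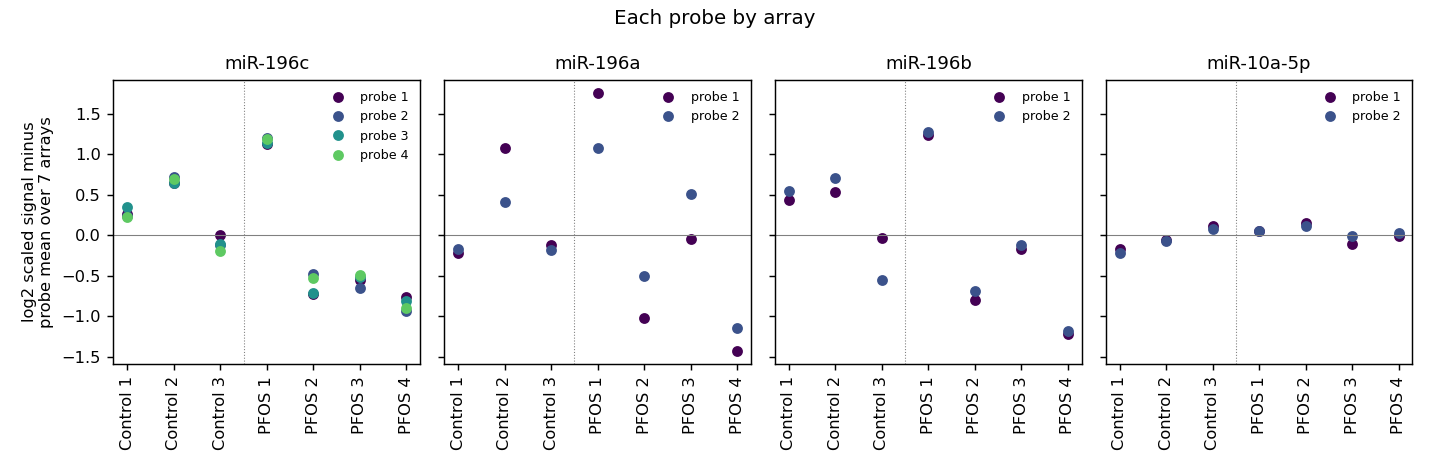
Log2 signal of each probe after 75th percentile scaling, minus that probe's mean over 7 arrays, for miR-196c (4 probes), miR-196a, miR-196b and miR-10a-5p (2 probes each); the dotted line divides Control from PFOS. The 8 probes of the miR-196 guides are all highest in PFOS 1 and lowest in PFOS 4, while those of miR-10a-5p stay close to 0.

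miR-196a and miR-196b, which did not enter the test, showed the same high array. The normalised signal of miR-196a was 21.9, 44.0 and 21.3 in Control 1 to 3. It was 62.6, 11.8, 26.3 and 11.9 in PFOS 1 to 4, the value of PFOS 4 resting on the floor that replaced signals under 12.1 before the loess step. PFOS 1 and Control 2 were again the highest livers, and the groups overlapped. Means were 29.1 ± 12.9 (SD, n = 3) in Control and 28.1 ± 23.9 (SD, n = 4) in PFOS.

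For miR-196b the normalised signal was 26.1, 31.7 and 13.5 in Control 1 to 3. It was 42.4, 10.1, 14.3 and 12.02 in PFOS 1 to 4, with PFOS 2 and PFOS 4 at the floor. PFOS 1 was highest and Control 2 second once more, with group means of 23.8 ± 9.32 (SD, n = 3) and 19.7 ± 15.2 (SD, n = 4). Both guides were below the detection rule on all Control arrays, so no fold is given. The root mean square difference from miR-196c over the 7 arrays, after centring each log2 profile on its mean, was 0.22 for miR-196b and 0.34 for miR-196a, against 0.67 for miR-10b and 0.73 for miR-10a-5p. A flat profile would lie 0.67 from miR-196c, so the miR-10 values show no likeness. The values of miR-196a and miR-196b rest partly on arrays where they were not detected or at the floor, and are a rough description. The miR-196 guides differ by 1 base, and whether their probes also read each other's RNA was not tested.

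miR-10b gave dim and nearly level readings. Its normalised signal was 19.2, 18.9 and 23.7 in Control 1 to 3. It was 18.0, 18.7, 15.9 and 17.7 in PFOS 1 to 4. Every PFOS value lay under every Control value, although the nearest pair were 18.7 and 18.9. Means were 20.6 ± 2.68 (SD, n = 3) in Control and 17.6 ± 1.19 (SD, n = 4) in PFOS, and the readings differed by -0.22 on the log2 scale (SE 0.11). That value describes normalised readings and is not given as a fold of miR-10b RNA, since miR-10b was not well above background in any Control liver by the rule used while its Control readings were the higher ones. A miRNA at the floor on every array differed by -0.15 after the same normalisation.

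The order of miR-10b before and after normalisation was not the same. Before any scaling its signal was 15.6, 10.9 and 19.6 in Control 1 to 3 and 15.0, 27.3, 26.7 and 22.1 in PFOS 1 to 4, with 3 PFOS livers above all Controls. All 39 spots well above background belonged to 1 of its 2 probes (39 of 69 against 0 of 67). That probe differed between groups by -0.02 on the log2 scale after 75th percentile scaling, with Control 3 highest and Control 2 lowest. Without Control 3 the difference turned to 0.08 (SE 0.13). The groups of miR-10b overlapped under 75th percentile scaling without loess, quantile normalization, spike-in scaling, the median of spots, a floor at the 5th percentile and the deposited table. They stayed apart with normexp background correction and with the other order of arrays in the loess.

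Over the whole table no miRNA was called at an adjusted p of 0.05 (limma with Benjamini-Hochberg adjustment, 0 of 175 tested, 0%; lowest adjusted p 0.131), and 34 had an unadjusted p under that value, 15 higher and 19 lower in PFOS. Groups did not overlap for 19.4% of the tested miRNAs, and 9.71% were without overlap and lower in PFOS. Of the 3 tested members, 1 (miR-10b) had groups without overlap, lower in PFOS. The median log2 difference of all tested miRNAs was -0.02 with a median SE of 0.14. The members' differences were thus 0.06, -0.22 and -0.50 for miR-10a-5p, miR-10b and miR-196c, each chosen with this contrast known. The value of miR-10b is a difference of readings that in Control were not well above background by the rule used.

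All 7 arrays came from 1 slide, in 2 rows. Row 1 held Control 1, PFOS 1 and PFOS 2, and row 2 held the others. The log2 difference of miR-196c was -0.03 within row 1, which contains PFOS 1, and -0.97 within row 2. With the row as a block it was -0.59 (SE 0.50). miR-10a-5p differed by 0.24 within row 1 and -0.03 within row 2, and miR-10b by -0.06 and -0.34. In row 1 the comparison rests on a single Control array.

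The miR-196c difference kept its direction under the alternatives tried, whereas its size changed. It was negative under all 21, from -0.97 to -0.03, both ends being comparisons within a slide row. Changing the set of tested miRNAs cannot move its value, and the other floor also left it at -0.50. All alternatives reuse the same arrays, so their number does not replicate a difference about the size of its SE (0.50). PFOS 1 was highest and Control 2 second under all 10 ways of computing the values, and PFOS 4 lowest under 9 of them. miR-10a-5p was higher in PFOS under 16 alternatives and lower under 5, from -0.37 to 0.31. miR-10b was lower under 13 of the 17 alternatives that gave a value and higher under 4, from -0.56 to 0.17. Scaling to the 75th percentile of all miRNAs moved the median of all tested miRNAs to 0.25, and scaling to the labelling spike-in moved it to -0.43. Relative to that median, miR-10a-5p differed by 0.06 and 0.05, miR-10b by -0.13 under both and miR-196c by -0.53 under both.

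**Figure D4:**
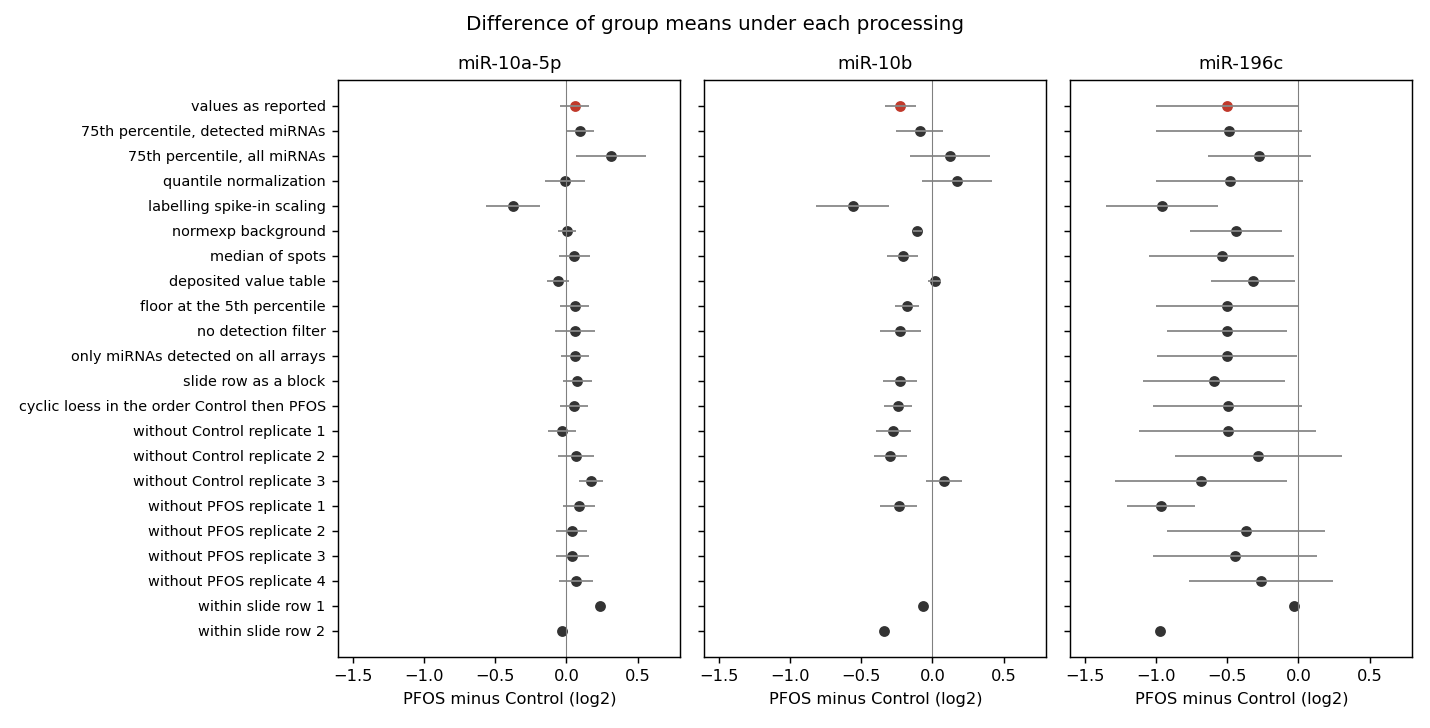
Log2 difference of PFOS minus Control for miR-10a-5p, miR-10b and miR-196c under each processing; red points are the reported values, bars are standard errors (none within a slide row), and a missing point means that miR-10b was not tested there. miR-196c stays below 0 throughout and is -0.96 without PFOS 1 and -0.97 within row 2; the other members change side.

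The tested miRNAs whose 7-array profile lay nearest to each member were named by the root mean square difference of centred log2 values. For miR-196c these were miR-3588 (0.24), miR-328a (0.38) and miR-1188-3p (0.40), against a median of 0.68 over all tested miRNAs. miR-3588 read 48.7, 59.5 and 25.0 in Control 1 to 3 and 62.0, 31.0, 27.5 and 18.8 in PFOS 1 to 4. PFOS 1 was its highest liver, Control 2 its second and PFOS 4 its lowest, as for miR-196c. A shared order is favoured by the choice of the nearest profile and adds nothing to it. miR-3588 was not detected on Control 3, miR-328a not on Control 2, and miR-1188-3p not on Control 2, Control 3 or PFOS 4. For miR-10a-5p the nearest were miR-19a (0.05), miR-181a (0.07) and miR-26a (0.09), with a median of 0.23. A flat profile would lie 0.11 from miR-10a-5p, so miR-26a was little nearer than a flat line. Small values come easily for a nearly level miRNA. For miR-10b the nearest were miR-145 (0.08), miR-92a (0.11) and miR-19b (0.12), with a median of 0.25 and a flat profile at 0.16. miR-145 was detected on only 3 arrays. Its means of 16.6 in Control and 14.1 in PFOS lay near the floor of 12.1. Without cyclic loess, 2 of the 3 were kept for miR-10a-5p and 1 each for miR-10b and miR-196c.

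The relatives of miR-10 outside the Hox clusters, the miR-99, miR-100 and miR-125 miRNAs, descend from the same ancestral family. Of 11 on the array, 6 were tested and 0 called, 2 with a positive and 4 with a negative difference, and their median was -0.09 beside -0.02 for all tested miRNAs. miR-99a* read 40.8 ± 8.41 (SD, n = 3) in Control and 29.9 ± 4.51 (SD, n = 4) in PFOS, a log2 difference of -0.44 (SE 0.18). It was detected on only 4 arrays, so these means include readings not well above background by the rule used. miR-125a-5p differed by -0.24 (SE 0.13), miR-100 by 0.10 (SE 0.16) and miR-125b-5p by -0.06 (SE 0.17). miR-615, which overlaps Hoxc5 and Hoxc6 on chromosome 7, was not detected on any array.

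Markers of the cell types of liver were set beside these values. In bulk tissue, a change in the share of a cell type and a change in RNA per cell cannot be told apart. miR-122, the defining miRNA of hepatocytes, was detected in every liver. The 5 tested of 6 hepatocyte miRNAs (1 higher, 4 lower) had a median difference of -0.12, and one of -0.43 in the deposited table. Their summed signal was 65853 to 66864 in Control and 64439 to 67198 in PFOS. Most of it was miR-122, with means of 58487 in Control and 58667 in PFOS. As the brightest tested miRNA it lies at the end of the loess curve, which can hold it level. Whether the loess did so here was not tested. The sum therefore cannot show the share of hepatocytes. The endothelial miR-126 and miR-126* had a median of 0.01 and a sum of 1571 to 1936 in Control and 1714 to 1854 in PFOS. Stellate cell and fibroblast miRNAs (6 tested of 10; 2 higher, 4 lower) had a median of -0.03, leukocyte and Kupffer cell miRNAs (6 of 8; 3 higher, 3 lower) one of 0.00, and erythroid miRNAs (2 of 4, both lower) one of -0.10. The stellate cell and fibroblast sum was 871 to 1065 in Control and 798 to 1101 in PFOS. For the leukocyte and Kupffer cell list it was 1303 to 1415 and 1174 to 1504. The erythroid sum was 518 to 930 in Control and 438 to 1079 in PFOS. None of the tested miRNAs in these lists was called.

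Of 9 miRNAs of bile duct and other epithelium, 3 were tested and 0 called, with a median of 1.57. They were miR-200a, miR-200b and miR-429, while miR-141 and miR-200c were not detected on any array. The summed signal of the 3 tested miRNAs was 62.7 to 190 in Control and 294 to 536 in PFOS, without overlap. Of all single tested miRNAs, 19.4% had groups without overlap in either direction. miR-429 was detected on only 4 arrays, and its Control mean of 17.5 lay near the floor of 12.1. The sum was 294, 313, 400 and 536 in PFOS 1 to 4, so PFOS 1, highest for miR-196c, was the lowest PFOS liver here, and PFOS 4, lowest for miR-196c, the highest. In Control 1 to 3 it was 62.7, 138 and 190, not the reverse of the miR-196c order. PFOS 1 also had the highest hepatocyte sum (67198) and leukocyte and Kupffer cell sum (1504) of all livers. Its stellate cell and fibroblast sum (798) was the lowest. For the endothelial and erythroid sums it was at neither end. The part of any of these lists in the miR-196c values was not tested.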

How the data were processed

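Liver miRNA was measured on 7 one-colour Agilent arrays, with groups taken from the sample titles. Per the file headers, the spots' intensity came from Feature Extraction 10.7.3.1. The values taken from there, the processed signal, are background-subtracted but not normalized between arrays. The deposited value table holds log2 values normalized by cyclic lowess by the authors, per the labels; set against the spots it had a Pearson r across miRNAs of 0.9987 to 0.9999 and column medians of 5.48 to 5.51, with no centring per miRNA and the direction of signal. It served as an alternative.

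Outlier-flagged spots were dropped, spots averaged per probe over 1644 probes and probes summed per miRNA. Arrays were scaled to the 75th percentile of the 123 miRNAs found in every liver, floored at the 1st percentile of detected values (12.1) and normalized on log2 by cyclic loess (span 0.7, 3 iterations, weighted on those miRNAs). No spot was saturated. The arrays detected 131 to 174 miRNAs in Control and 161 to 200 in PFOS, and the number of arrays limits the precision. Groups were compared in a single limma 3.58.1 fit over 175 miRNAs (lmFit, eBayes; R 4.3.3; 6.51 degrees of freedom). The script was tested on simulated data.

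Members, lists and alternatives were chosen with earlier results of these data known. Every member was named, with values where detected, plus 3 nearest profiles per tested member and up to 4 miRNAs per list by the size of the difference over its SE; for lists other than the miR-10 relatives, counts, medians and sums are given instead. The array annotation is of rn4, so GRCr8 gave only names, neighbours and sequences. Figures used matplotlib 3.10.9.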

Additional observations from a re-analysis of the deposited data

How the results depend on the processing

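All 21 alternatives kept the miR-196c difference negative, but they reuse the same arrays and some cannot move its value. The cause of the following shifts was not tested. The count of miRNAs called was 34 at an unadjusted p, 3 with 75th percentile scaling over all miRNAs (3 higher, 0 lower), 8 with spike-in scaling (0 higher), 22 with normexp (6 higher, 16 lower), 9 in the deposited table (all lower), 1 without a detection filter, 4 with the slide row as a block, 1 within row 2 and 0 without any single array. Groups did not overlap for 19 miRNAs under quantile normalization, 56 under spike-in scaling, 106 within row 1, 86 within row 2, and 30 to 52 without single arrays; fewer arrays overlap less often by construction. Those lower in PFOS numbered 1 to 56 over 18 alternatives, against 17.

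The log2 difference of miR-10a-5p was 0.31 with 75th percentile scaling over all miRNAs, -0.37 with spike-in scaling and 0.24 within row 1, and its SD 0.29 and 0.28 under those scalings and 0.0775 with normexp. That of miR-10b was 0.12 and -0.56 under the same scalings, 0.17 with quantile normalization, 0.0148 in the deposited table, -0.0647 within row 1, and -0.30 to 0.0824 without single arrays. Its SD was 0.36, 0.45 and 0.33 under those scalings and quantile normalization, 0.063 with normexp and 0.0421 in the deposited table, where miR-196c had 0.45. miR-10b could not be tested without PFOS 2, PFOS 3 or PFOS 4, nor among miRNAs detected on all arrays. By the scanner's gene flag and by at least 1 spot well above background, miR-10b was detected on 7 and 6 arrays, miR-10b* on 1 and 1, miR-196a on 6 and 5, and miR-196b on 5 and 6. Pairing the loess arrays in another order, chosen after seeing the data, kept every member's direction. No paired analysis was possible because the labels give no shared replicate numbers. The medians of the hepatocyte and the bile duct lists were -0.43 and 0.63 in the deposited table. Signal near background limits miR-10b, miR-196a and miR-196b.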
